A study of Glycine max with 24 samples.

Results

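The 100 probe sets described here carried a higher signal in soybean accession CD than in accession YH in roots and in leaves, under low and under normal phosphorus (P). They were chosen by their measured values: for each probe set the highest of the 4 YH group means was subtracted from the lowest of the 4 CD group means (log2 intensity), and the 100 largest differences were kept, out of 75434 distinct probe sets (75990 with identical rows). The difference between the accessions was therefore used to choose the members, and it is given below as a description without a test. The responses to low P and the differences between roots and leaves within an accession were not what the score measures, but they come from the same group means, and the rule favours probe sets in which they are small. Their tests are given with that limit, beside the share over all probe sets. Other probe sets of the same genes were read from other probes on the same arrays.

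CD is a low-P-tolerant and YH a low-P-sensitive accession of Glycine max. Seedlings of both were kept for 10 days in hydroponic Hoagland solution of reduced strength with 0.005 mmol/L P (low P) or 0.5 mmol/L P (normal P), and roots and leaves were taken separately. The 8 groups, CD roots low P, CD roots normal P, CD leaves low P, CD leaves normal P and the same 4 of YH, had 3 biological replicates each, and each replicate was hybridised to 1 Affymetrix Soybean Gene ST array. Each accession is 1 line, so that differences between CD and YH cannot be assigned to tolerance as such. The hour of harvest is not given in the sources used here. A difference between the lines and a difference in the hour of harvest can therefore not be told apart.

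GIGANTEA is a protein of the plant circadian clock that also controls flowering in response to day length. In Arabidopsis it binds FKF1, an F-box protein that senses blue light, and the pair removes repressors of flowering, whereas transcription factors of the LHY and CCA1 family act in the morning and hold down genes of the evening. The transcripts of these genes rise and fall over the day, and in soybean the maturity locus E2 is a GIGANTEA gene.

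Of the 100 probe sets, 46 carried a single gene symbol, 6 carried several and 48 none. All 46 single symbols were found in the RefSeq gene table as protein-coding genes. Of these, 40 were locus symbols (LOC and a number), for which no role is given in the sources used here. The remaining 6 were GIGANTEA, E2, FKF1, RSV3, DNAJ and GSTU41. The score, which is the lowest CD group mean minus the highest YH group mean, was 3.56 at rank 1, 1.5 at the median and 1.16 at rank 100, equal to 11.8-fold, 2.83-fold and 2.24-fold. At the lower end, the 5 members just inside, probe set 11803658, LOC100778227, probe set 12090146, LOC100500522 and GSTU41, had scores of 1.18, 1.18, 1.17, 1.17 and 1.16. The 5 probe sets just outside, 11822942, 12150072, LOC100794660, 11791156 and 11873157, had scores of 1.16, 1.15, 1.15, 1.15 and 1.15, so that the list had no natural end at 100.

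In 97 of the 100 members the lowest of the 12 CD arrays was above the highest of the 12 YH arrays, and in 44 of them by more than 1 on the log2 scale. Among all distinct probe sets 0.708% were separated in this way, which is printed for scale only, since the rule chose for separation. The exceptions were LOC100780971, probe set 11945595 and probe set 11886462. Over the members, the median difference between CD and YH was 4.05-fold in roots under low P and 4.21-fold in roots under normal P. In leaves it was 5.11-fold under low P and 5.19-fold under normal P. The mean log2 intensity of the 100 members was 5.0 to 5.42 on the 12 CD arrays and 2.56 to 2.97 on the 12 YH arrays.

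**Figure D1:**
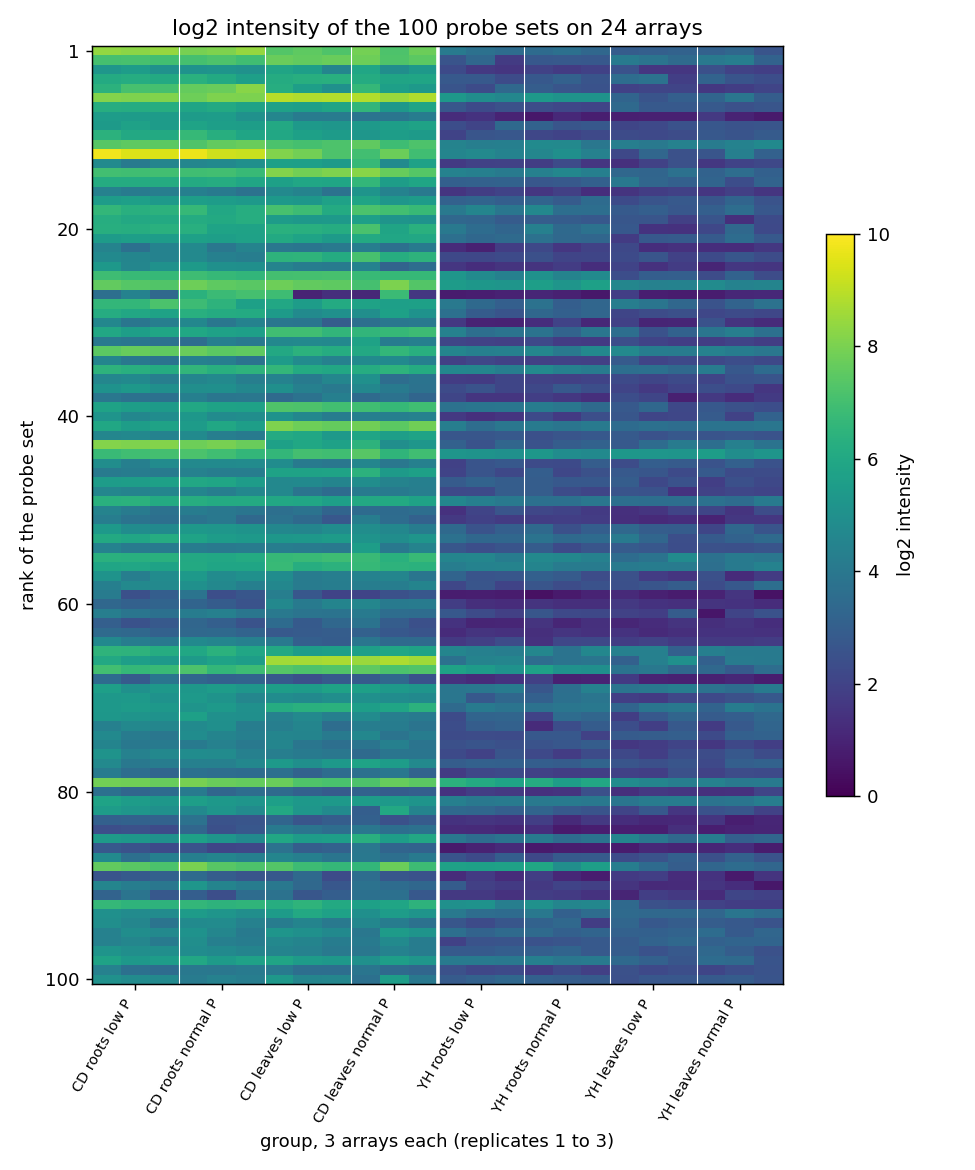
Log2 intensity (colour) of the 100 probe sets (rows, by rank) on the 24 arrays (columns, 3 per group, CD left of YH). The CD columns are brighter throughout, with LOC100780971 at rank 27 as the visible exception in CD leaves, where 4 of 6 arrays read between 0.98 and 1.64.

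Differences in the other direction were also present in the series. A score over 0 was found for 4591 distinct probe sets (6.09%), and the mirrored score, the lowest YH group mean minus the highest CD group mean, was over 0 for 7430 (9.85%). Of scores over 1 there were 147 with CD higher and 79 with YH higher. A difference of transcript level between the accessions and a difference in how well their sequences match the probes cannot be told apart from the intensities. Since whole roots and leaves were used, more transcript per cell and more cells of an expressing type cannot be told apart either.

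The highest ranks and several others were held by GIGANTEA genes and their partner FKF1. Of the probe sets whose annotation holds the symbols GIGANTEA, E2 or FKF1 there were 5 on the array, and 5 of 5 were among the 100 members. The symbols were picked because members carried them, so that this count is a description and was partly fixed by the choice. Probe set 12215520 carried the symbol GIGANTEA alone (rank 2), probe set 11985534 was E2 (rank 11) and probe set 11862281 was FKF1 (rank 17). Probe set 11967103 (rank 1) was annotated with GIGANTEA and LOC100781641, and probe set 11940493 (rank 60) with FKF1 and LOC100812253. Soybean holds closely related copies of these genes, so that the split of signal between the copies is uncertain.

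For GIGANTEA, the arrays of CD roots read 7.05, 7.07 and 6.98 under low P and 7.05, 7.21 and 6.93 under normal P, against 2.61, 3.33 and 1.73 and then 2.77, 2.78 and 2.74 in YH roots (log2 intensity). The arrays of CD leaves read 7.73, 7.59 and 7.73 under low P and 7.78, 7.24 and 7.49 under normal P, against 4.11, 3.86 and 3.44 and then 4.03, 4.23 and 3.13 in YH leaves. All CD arrays were therefore far above all YH arrays. The group means differed by 22.2-fold and 19.7-fold in roots (low P and normal P) and by 14.7-fold and 13.1-fold in leaves. In YH the signal was lower in roots than in leaves at both P levels (log2 difference -1.25, SE 0.294, adjusted p = 0.0022 under low P, and -1.03, SE 0.294, adjusted p = 0.00927 under normal P, limma with Benjamini-Hochberg adjustment). In CD the same difference was -0.65 under low P (adjusted p = 0.118) and -0.44 under normal P (adjusted p = 0.334).

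Probe set 11967103 read 8.39, 8.26 and 8.43 in CD roots under low P, against 4.13, 3.74 and 3.52 in YH roots under low P. In leaves under low P it read 7.31, 7.51 and 7.25 in CD, against 2.92, 3.05 and 3.13 in YH. It differed from the GIGANTEA probe set in its tissue pattern, since its mean signal was higher in roots than in leaves in both accessions. Under low P this difference was 1.0 in CD (SE 0.203, adjusted p = 0.000556, limma with Benjamini-Hochberg adjustment) and 0.77 in YH (adjusted p = 0.00572, under the 2-fold threshold). Its CD over YH ratio was 23.6-fold and 24.8-fold in roots and 20-fold and 24.6-fold in leaves, under low P and normal P in this order.

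E2 read 7.41, 7.54 and 7.48 in CD roots and 7.17, 7.04 and 7.20 in CD leaves under low P, against 4.49, 4.26 and 4.33 in YH roots and 4.27, 4.06 and 4.38 in YH leaves under low P. Its levels were nearly even across tissues and P levels within each accession, with CD over YH ratios between 6.89-fold and 8.64-fold. FKF1 lay between 5.27 and 5.83 on the 12 CD arrays and between 2.26 and 3.51 on the 12 YH arrays, a difference of 4.97-fold to 7.5-fold. Probe set 11940493 read 3.33, 3.09 and 3.22 in CD roots and 4.65, 4.13 and 4.51 in CD leaves under low P, against 1.84, 1.33 and 1.28 in YH roots and 1.66, 1.46 and 1.41 in YH leaves under low P. Unlike the FKF1 probe set it was lower in roots than in leaves of CD (log2 difference -1.21, SE 0.182, adjusted p = 1.79e-05 under low P, limma with Benjamini-Hochberg adjustment), while YH roots and leaves differed by -0.03 (adjusted p = 0.935).

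**Figure D2:**
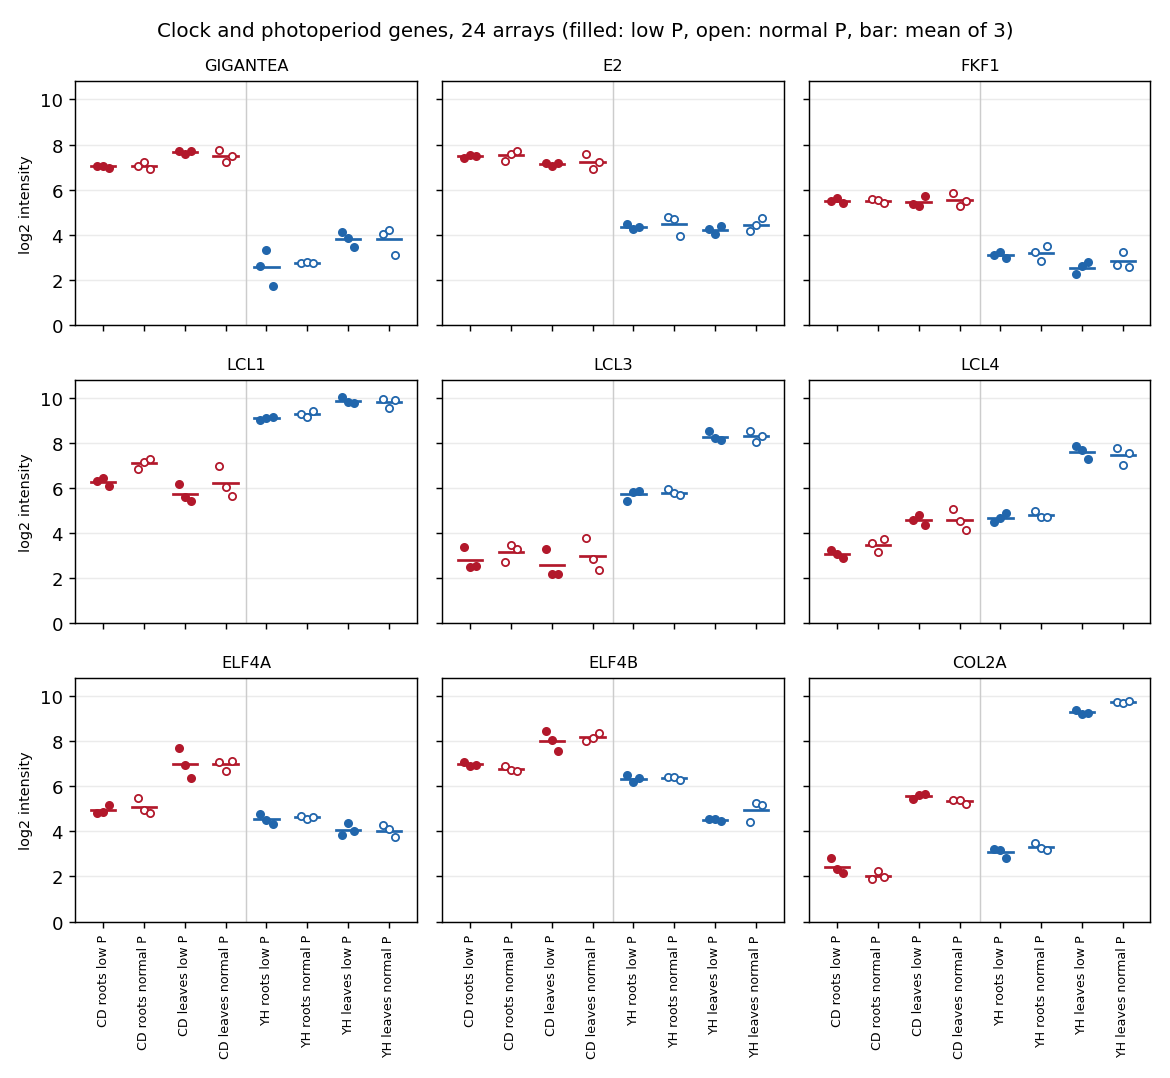
Log2 intensity of 9 clock and photoperiod genes on the 24 arrays (filled points low P, open points normal P, bars the mean of 3 arrays, CD in red left of YH in blue). GIGANTEA, E2 and FKF1 were higher in CD in both tissues, LCL1, LCL3 and LCL4 were lower in CD in both tissues, and ELF4A, ELF4B and COL2A differed mainly in leaves.

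To place these members among related genes, 35 clock and photoperiod symbols with a probe set of their own were listed by symbol after the members were known, so that only values are given. Of the 35, 3 were members (GIGANTEA, E2 and FKF1). Among the other 32, CD was higher in all 4 comparisons in 8, lower in all 4 in 11 and of mixed sign in 13, and their median log2 difference was 0.00 and 0.01 in roots and -0.11 and -0.04 in leaves (low P and normal P). Over all probe sets the medians were -0.04 and -0.02 in roots and -0.07 and -0.06 in leaves. The list held genes that differed in both directions.

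The morning factors of the LHY and CCA1 family ran the other way. LCL1 had a lowest, median and highest value of 6.09, 6.63 and 7.27 on the 6 arrays of CD roots and of 5.42, 5.85 and 6.96 in CD leaves, against 9.03, 9.15 and 9.38 in YH roots and 9.53, 9.86 and 10.05 in YH leaves. LCL3 had 2.18, 2.61 and 3.77 in CD leaves, against 8.05, 8.24 and 8.52 in YH leaves, and LCL4 had 4.12, 4.55 and 5.06 in CD leaves, against 7.02, 7.62 and 7.84 in YH leaves. In neither tissue did the CD and YH arrays of LCL1, LCL3 or LCL4 overlap, and the log2 difference of CD minus YH was -2.91 in roots and -5.71 in leaves for LCL3 under low P.

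Of the evening factors, ELF4A and ELF4B, whose Arabidopsis relative ELF4 belongs to the evening complex of the clock, were higher in CD chiefly in leaves. ELF4A had a median of 7.0 in CD leaves, against 4.04 in YH leaves, and of 4.89 in CD roots, against 4.57 in YH roots. For ELF4B the medians were 8.08 in CD leaves against 4.53 in YH leaves, and 6.89 in CD roots against 6.37 in YH roots. LUXB and LUXC, relatives of another protein of that complex, had higher means in CD in all 4 comparisons, by 0.38 to 1.93 and by 0.80 to 1.14. ELF3A had lower means in CD in all 4, by 0.14 to 0.53 on the log2 scale. J1 differed by 0.26 and 0.19 in roots and by -0.47 and -0.34 in leaves, and TOC1 by -0.12 and -0.15 in roots and by 1.51 and 1.0 in leaves (low P and normal P). The CONSTANS-like genes COL2A and COL2B were lower in CD leaves, with medians of 5.42 and 5.01, against 9.52 and 9.43 in YH leaves. ZTL, ZTL1 and ZTL2, relatives of FKF1, differed by 0.05 to 0.69 on the log2 scale. E4, which is a phytochrome A gene, differed by 0.16 to 0.56.

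Outside this group, the 12 highest ranks held 9 probe sets, none of which had a role given in the sources used here. LOC100814610 (rank 3) was even across groups: it lay between 4.56 and 5.93 on the CD arrays and between 1.54 and 2.51 on the YH arrays, with ratios of 9.38-fold to 11-fold. Probe set 11990478 (rank 4) was equally even, at 5.63 to 6.35 on the CD arrays against 1.87 to 3.78 on the YH arrays. Probe set 12092601 (rank 5) reached 35.6-fold in roots under normal P, with 7.63, 7.71 and 8.23 in CD roots against 2.96, 2.62 and 2.52 in YH roots. These 3 showed no array of one accession within the range of the other.

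LOC100784383 (rank 6) had the largest ratio of the 12 in any group, 60.2-fold in leaves under low P, where CD arrays read 8.91, 8.81 and 8.86 and YH arrays 3.23, 2.59 and 3.01. Probe set 12017977 (rank 7) lay between 5.33 and 6.59 in CD and between 2.04 and 3.42 in YH. LOC100527600 (rank 8) lay between 3.85 and 5.53 in CD and between 0.65 and 1.66 in YH. Whether so low a signal in YH is above background was not tested. LOC100789452 (rank 9) lay between 5.27 and 6.05 in CD and between 2.05 and 3.42 in YH, and LOC100806440 (rank 10) between 5.25 and 6.70 in CD and between 2.02 and 2.85 in YH. Probe set 11786311 (rank 12) read 9.80, 9.47 and 9.42 in CD roots under low P, against 4.56, 4.70 and 4.43 in YH roots under low P. It stood apart among the members in that it was called higher in roots than in leaves in both accessions at both P levels.

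**Figure D3:**
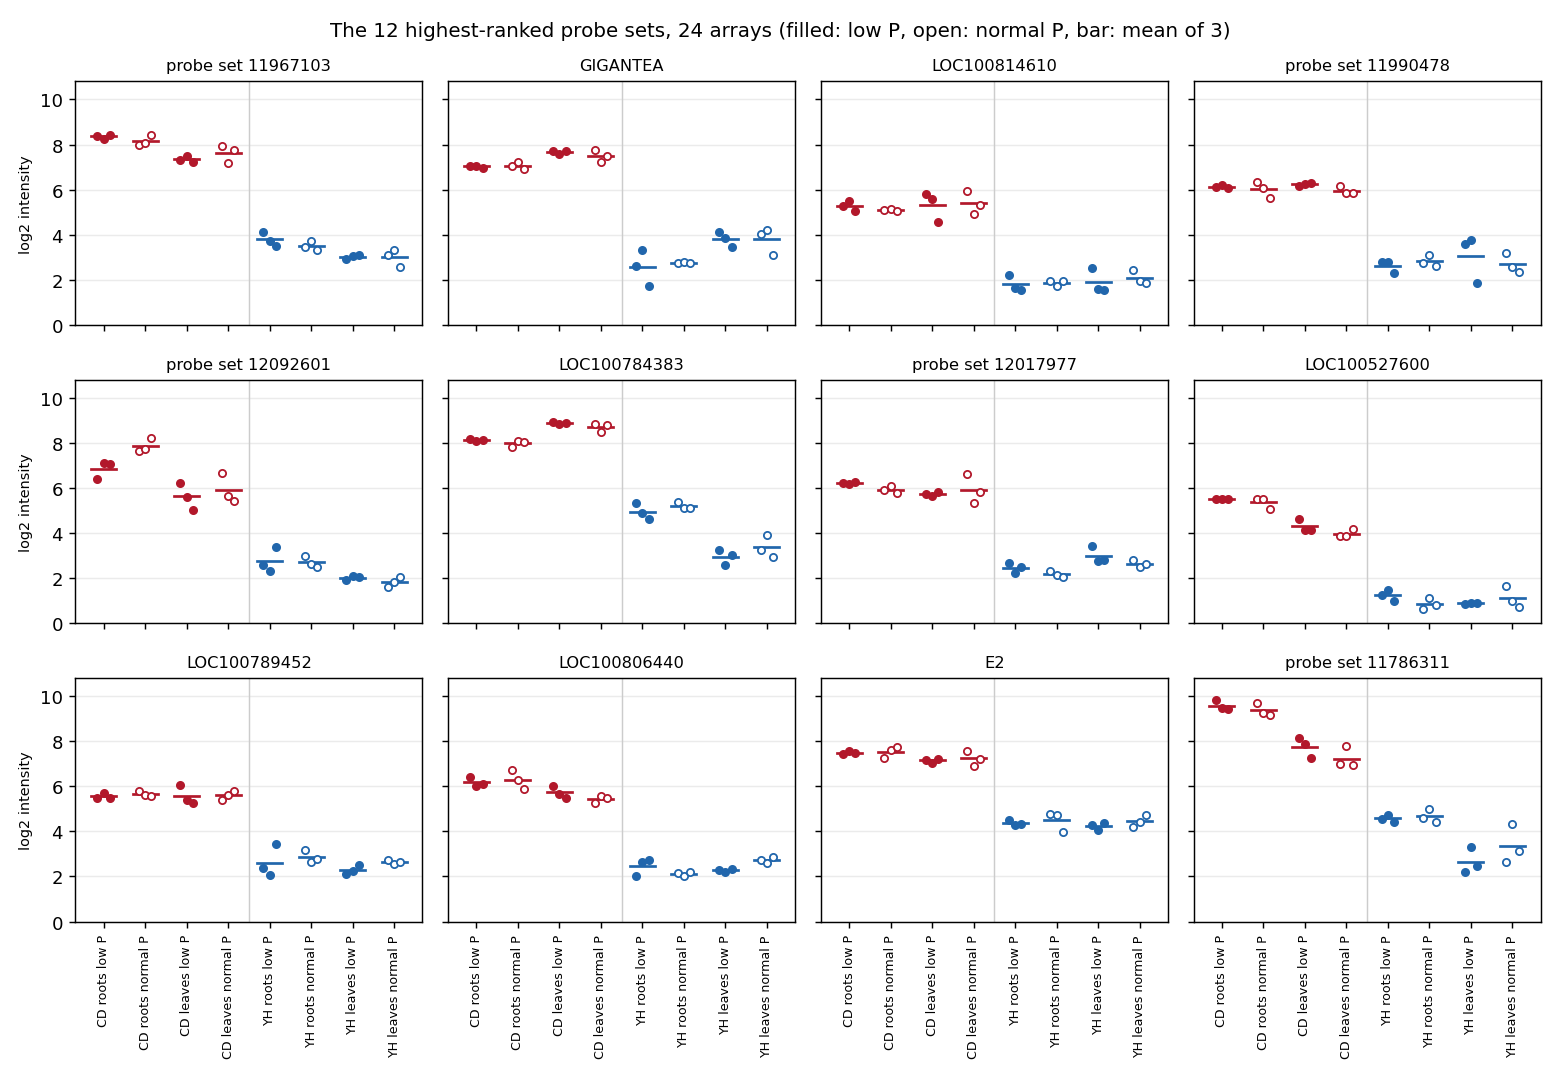
Log2 intensity of the 12 highest-ranked probe sets on the 24 arrays (filled points low P, open points normal P, bars the mean of 3 arrays, CD in red left of YH in blue). In all 12 panels every CD point lies above every YH point. The size of the difference changes with tissue in several, among them LOC100784383, LOC100527600 and probe set 12092601.

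Of the members with a gene name outside the clock, RSV3 (rank 34) belongs to the NBS-LRR disease resistance genes and confers resistance to soybean mosaic virus. It read 4.56, 4.0 and 3.82 in CD roots and 5.50, 4.84 and 4.39 in CD leaves under low P, against 1.88, 2.12 and 1.98 in YH roots and 2.85, 2.04 and 2.22 in YH leaves under low P. The accessions did not overlap, and the ratios were 4.39-fold to 5.82-fold. DNAJ (rank 62), named for the J-domain proteins that assist Hsp70 chaperones, lay between 2.42 and 3.82 in CD and between 1.05 and 1.54 in YH. GSTU41 (rank 100) and LOC548030 (rank 23, with the synonym GSTU51) are tau-class glutathione S-transferases, enzymes that attach glutathione to reactive and foreign compounds.

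LOC548030 read 4.74, 4.56 and 4.44 in CD roots and 6.47, 6.49 and 6.16 in CD leaves under low P, against 2.17, 2.13 and 2.24 in YH roots and 2.23, 2.63 and 1.94 in YH leaves under low P. In CD it was lower in roots than in leaves by 1.79 on the log2 scale under low P (SE 0.207, adjusted p = 5.18e-07, limma with Benjamini-Hochberg adjustment), whereas YH showed a difference of -0.08 (adjusted p = 0.813). The ratio between accessions was accordingly 5.27-fold in roots and 17.2-fold in leaves under low P.

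Members were also counted by symbol in gene families. Of all probe sets with a single symbol 0.142% were members, so that less than 1 member would fall in each of the lists. None of the 60 probe sets of phosphate starvation genes was a member. The same was true of 253 transcription factors, 119 transporters, 83 cytochrome P450 genes, 66 receptor-like kinases, 15 glycosyltransferases, 9 peroxidases, 8 ribosomal proteins and 6 lipoxygenases. There was 1 member among 17 disease resistance genes (RSV3), 2 among 60 glutathione S-transferases and 1 among 50 heat shock genes (DNAJ). The counts are too small to set a family apart. They cover named genes only, and a locus symbol may belong to any of these families.

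The response of the members to low P was then tested. No member was called, that is, passed both thresholds, which were 0.05 for the adjusted p and 2-fold for the change, in CD roots, where 0.325% of all probe sets were called higher and 0.0947% lower (limma with Benjamini-Hochberg adjustment). The count was also 0 of 100 in CD leaves (background 0.00395% higher and 0% lower), in YH roots (0% and 0.00132%) and in YH leaves (0.0211% and 0.0855%). At an unadjusted p under 0.05 there were 3 members in CD roots, 1 in CD leaves, 3 in YH roots and 6 in YH leaves, against 4.03%, 2.57%, 1.54% and 7.71% of all probe sets. The median log2 difference of low P minus normal P over the members was 0.00, 0.07, 0.02 and 0.02 in these groups, against -0.01, -0.01, 0.00 and 0.00 over all probe sets. At these background shares fewer than 1 call would fall in 100 probe sets, so that a count of 0 does not set the members apart.

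Whether the response to low P differed between CD and YH was tested by the interaction term. It called 0 of 100 members in roots (background 0.146% higher and 0.0118% lower) and 0 of 100 in leaves (0.0211% and 0.00263%), with 2 and 5 members at an unadjusted p under 0.05, against 2.98% and 3.78% of all probe sets (limma). The range of the log2 responses was -2.94 to 0.59 in CD roots and -0.58 to 0.64 in YH roots. In leaves it was -0.53 to 0.87 in CD and -0.86 to 0.87 in YH. The rule takes the lowest CD mean and the highest YH mean, and so favours members with small responses.

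The member with the largest response was LOC100780971 (rank 27). Its arrays read 3.65, 4.41 and 3.38 in CD roots under low P and 6.38, 6.81 and 7.07 in CD roots under normal P, a log2 difference of -2.94. In CD leaves they read 6.89, 0.98 and 1.33 under low P and 1.11, 6.83 and 1.64 under normal P. All 12 YH arrays lay between 0.66 and 1.86. The CD root arrays of the 2 P levels thus did not overlap, whereas in CD leaves 1 array of each P level was high and 4 were as low as those of YH, and the CD leaf means of this gene rest on these 2 high arrays. In the fit over all 24 arrays, which includes them, the SE was 1.20 and the adjusted p in CD roots 0.923. Fitted to the 6 CD root arrays alone the SE was 0.287 and the adjusted p = 0.0254 (limma with Benjamini-Hochberg adjustment), and the interaction with accession, fitted to the root arrays alone, was -2.89 (adjusted p = 0.0105). A second probe set of the gene, 12181587, differed by -1.08 in CD roots (SE 0.285, adjusted p = 0.14).

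Among the remaining members, probe set 12092601 had 6.41, 7.10 and 7.04 in CD roots under low P and 7.63, 7.71 and 8.23 in CD roots under normal P, without overlap, but its difference of -1.0 did not pass (SE 0.325, adjusted p = 0.414, limma with Benjamini-Hochberg adjustment). GSTU41 differed by 0.59 in CD roots (adjusted p = 1). GIGANTEA, E2 and FKF1 differed by -0.27 to 0.18 between low P and normal P in the 4 accession and tissue combinations.

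**Figure D4:**
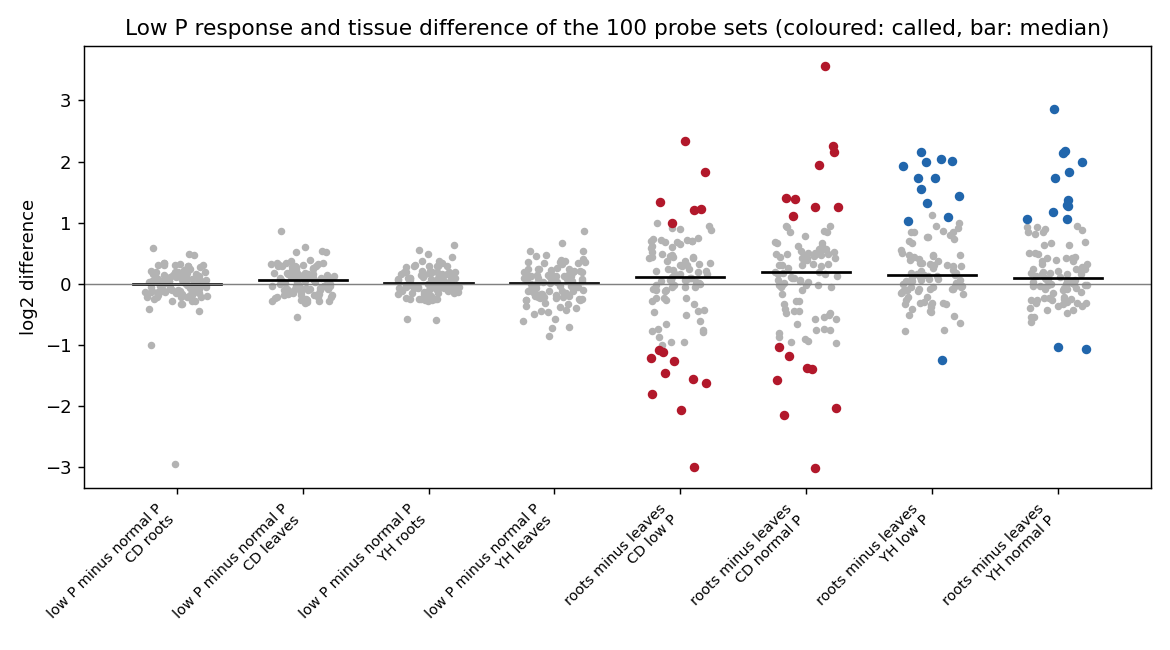
Log2 differences of the 100 members, low P minus normal P on the left and roots minus leaves on the right (grey points not called, red points called in CD, blue points called in YH, bars the median). No point is coloured for low P, and the lowest point in CD roots is LOC100780971 at -2.94.

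Differences between roots and leaves were more frequent. In CD under low P, 6 members were called higher in roots and 10 lower (background 8.38% and 7.37%), and in CD under normal P 9 were higher and 8 lower (7.82% and 6.87%, limma with Benjamini-Hochberg adjustment). In YH under low P, 12 were called higher in roots and 1 lower (9.74% and 6.96%), and under normal P 12 were higher and 2 lower (10.3% and 6.6%). The rule bears on these counts too, since a member low in one tissue of CD or high in one tissue of YH has a small score. At neither P level was a tissue difference called in 79 members in CD and in 84 in YH, against 82.5% and 80.3% of all probe sets.

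LOC100799722 (rank 66) had the largest tissue difference with a lower level in roots. It read 6.05, 5.60 and 5.37 in CD roots and 8.62, 8.65 and 8.72 in CD leaves under low P, against 3.74, 4.48 and 4.54 in YH roots and 3.05, 4.37 and 5.02 in YH leaves under low P. CD roots and CD leaves did not overlap and differed by -2.99 (SE 0.353, adjusted p = 7.24e-07, limma with Benjamini-Hochberg adjustment), and YH roots and leaves overlapped and differed by 0.11 (adjusted p = 0.864). LOC100783074 (rank 41) and LOC100799267 (rank 46) had the same pattern, with differences of -2.06 and -1.62 in CD under low P (adjusted p = 3.59e-09 and 9.81e-06) and of 0.35 and -0.31 in YH (adjusted p = 0.139 and 0.367).

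In the opposite direction, LOC100305387 (rank 43) read 8.16, 8.06 and 8.13 in CD roots and 5.69, 5.95 and 5.70 in CD leaves under low P, against 3.11, 2.55 and 3.29 in YH roots and 2.81, 3.52 and 4.15 in YH leaves under low P. It was higher in CD roots than in CD leaves by 2.33 (SE 0.325, adjusted p = 6.95e-06, limma with Benjamini-Hochberg adjustment), while in YH the difference was -0.51 (adjusted p = 0.275). Probe set 11786311 was higher in roots by 1.83 in CD and by 1.92 in YH under low P (adjusted p = 0.000323 and 0.000191).

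In YH the largest tissue differences were those of probe set 11912696 (rank 92), probe set 11903776 (rank 88), LOC100813493 (rank 25) and LOC100784383, all higher in roots. Probe set 11912696 read 6.67, 6.51 and 6.46 in CD roots and 6.22, 6.49 and 6.08 in CD leaves under low P, against 5.01, 5.10 and 4.28 in YH roots and 3.41, 2.48 and 2.38 in YH leaves under low P. The difference between roots and leaves was 2.04 in YH (SE 0.248, adjusted p = 1.14e-06, limma with Benjamini-Hochberg adjustment) and 0.29 in CD (adjusted p = 0.479). Of the members lower in roots than in leaves of YH, averaged over P levels, GIGANTEA had the largest difference, followed by LOC100305387 and probe sets 11803658 and 11969340, at -0.51, -0.77 and -0.75 under low P, of which none passed both thresholds. LOC100305387 passed them under normal P (-1.06, adjusted p = 0.0152).

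LOC100786840 (rank 39) was called in opposite directions in the 2 accessions. Its arrays read 5.77, 5.55 and 5.43 in CD roots and 7.23, 7.22 and 6.96 in CD leaves under low P, against 3.77, 3.88 and 3.94 in YH roots and 2.78, 3.35 and 2.17 in YH leaves under low P. Roots were lower than leaves in CD (-1.56, SE 0.22, adjusted p = 8.18e-06) and higher than leaves in YH (1.10, SE 0.22, adjusted p = 0.00047, limma with Benjamini-Hochberg adjustment), and the calls were the same under normal P. The ratio of CD to YH was 3.30-fold in roots and 20.8-fold in leaves under low P.

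With both P levels averaged, the log2 difference between CD and YH was larger in leaves than in roots by more than 1 in 21 members, larger in roots by more than 1 in 6 and within 1 in 73. This split was not counted over all probe sets. Over all of them, calls higher in CD were also more frequent in leaves (4.76% and 5.5%) than in roots (2.24% and 1.67%, low P and normal P). The split is therefore not read as a trait of the members. Over the 4 group means the range was under 0.5 in both accessions in 17 members, and it exceeded 2 in 7 members in CD and in 6 in YH.

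**Figure D5:**
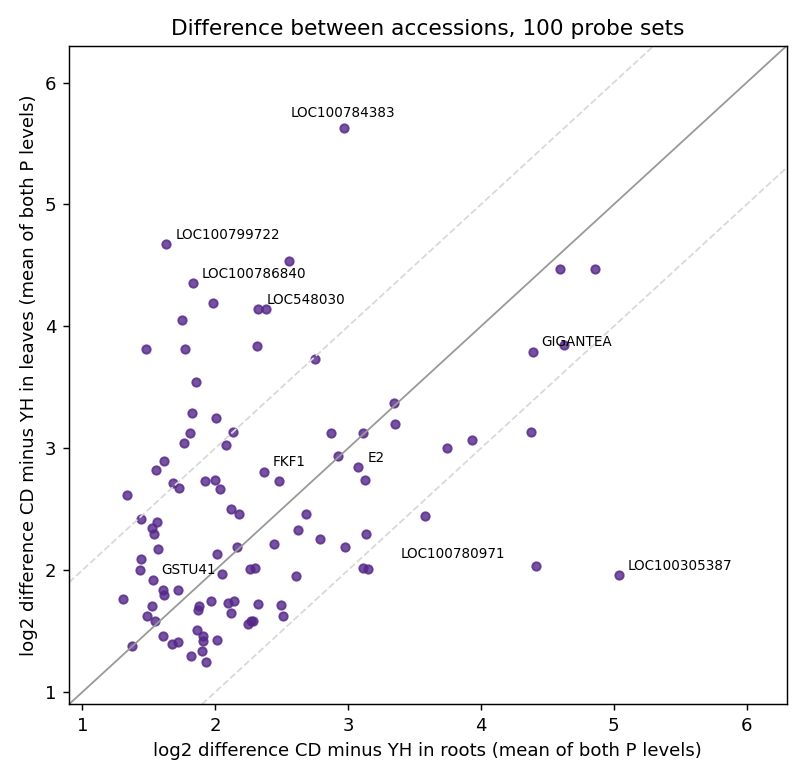
Log2 difference of CD minus YH in roots (horizontal axis) and in leaves (vertical axis) for the 100 members, each the mean of both P levels, with the line of equality and dashed lines 1 above and below it. In 21 members the point lies above the upper dashed line, LOC100784383 and LOC100799722 among them, and in 6 it lies below the lower one.

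The tissue labels were checked with marker genes. All 7 leaf markers, Rubisco activase genes, CAB3 and RBCS1, were higher in leaves than in roots in both accessions. In leaves, 5 of the 7, all of them Rubisco activase genes, were lower in CD than in YH at both P levels. CAB3 and RBCS1 were higher in CD leaves, by 0.59 and 1.34 under low P and by 0.98 and 1.12 under normal P. The median log2 difference over the 7 was -1.63 under low P and -1.67 under normal P. The root list separated the tissues less well, with 10 of 16 higher in roots in CD and 8 of 16 in YH. NRT2, a nitrate transporter, was at 8.31 in CD roots and 3.04 in CD leaves under low P, and at 7.15 in YH roots and 3.40 in YH leaves. The part of the leaf markers in the differences of the members was not tested.

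For 5 genes with a member, a second probe set with the same single symbol was present that was itself no member. These were read on the same arrays but from other probes. Probe sets that were members themselves, such as 11967103 and 11940493, or that carried several symbols were left out of this count. For GSTU41, probe set 12209380 was called higher in CD in all 4 comparisons, with log2 differences of 1.48 and 1.10 in roots and 1.87 and 1.21 in leaves under low P and normal P (adjusted p = 0.000122, 0.00267, 3.26e-06 and 0.000394, limma with Benjamini-Hochberg adjustment). Of all probe sets 0.354% were called higher in CD in all 4 comparisons and 0.213% lower. Without replicate 3 of YH roots under normal P the difference in roots under normal P was 0.87 (adjusted p = 0.0256), and without replicate 1 of YH leaves under normal P that in leaves was 0.99 (adjusted p = 0.00325), both under the 2-fold threshold.

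For the other 4 genes the second probe set was not called higher in CD in all 4 comparisons. RSV3 probe set 12081020 was called higher in CD in leaves, by 1.58 and 1.69 under low P and normal P, but differed by -0.12 and -0.34 in roots (adjusted p = 0.885 and 0.708), where the member differed by 2.13 and 2.22. LOC100780971 probe set 12181587 was called in roots under normal P alone, by 1.06 (adjusted p = 0.0284). LOC100775352 probe set 12095787 was called in none, with differences of 0.31 to 0.95 against 1.56 to 2.10 for the member. LOC100776625 probe set 11923157 was called lower in CD in leaves under normal P (-1.07, adjusted p = 0.02). It differed by -0.48 and -0.58 in roots and by -0.88 in leaves under low P (adjusted p = 0.458, 0.387 and 0.062), where the member differed by 1.23 to 1.78 over the 4 comparisons. Thus 1 of these 5 second probe sets was called higher in CD throughout, a count that leaves out second probe sets that were members.

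Genes beside the members in the RefSeq gene order were then read. For each of the 46 members with a position, only the nearest measured gene on each side was taken, within 10 genes. It had to have a probe set with a single symbol that was not a member, and 1 probe set per gene was read. This gave 90 distinct neighbouring probe sets. Of these, 6 were called higher in CD in roots under low P and 4 under normal P (6.67% and 4.44%), against 2.85% and 1.99% of the 32340 probe sets with a single symbol that were not members. In leaves 9 and 11 were called higher (10.0% and 12.2%), against 7.61% and 9.06%. None was called lower in CD in any of the 4 comparisons, where the background was 1.78%, 2.07%, 3.34% and 4.28%. Over all 75990 probe sets the shares called higher were 2.24%, 1.67%, 4.76% and 5.5%, and those called lower 1.15%, 1.34%, 2.16% and 2.72%, in the same order of comparisons. These shares rest on few genes and were not tested.

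Among the 46 members with a position, the closest pair was LOC100789452 and LOC100788398, which stood 2 genes apart. LOC100788398 (rank 47) read 5.52, 5.57 and 5.70 in CD roots and 4.68, 4.75 and 4.51 in CD leaves under low P, against 2.88, 3.20 and 2.95 in YH roots and 2.96, 2.17 and 2.50 in YH leaves under low P. Its CD and YH arrays did not overlap, and its ratio was 4.30-fold to 7.94-fold. The gene between the 2, LOC100788926, was no member and was not called in any comparison. It differed by 0.19 and 0.20 in roots and by 0.57 and 0.05 in leaves (low P and normal P). The next gene on the other side of LOC100788398, LOC100787859, was no member either. It was called higher in CD roots by 2.19 and 2.16 on the log2 scale and not called in leaves (0.70 and 0.24). LOC100783074 stood 30 and 32 genes from the pair. No other members with a position stood within 10 genes of each other, and the remaining members were not placed.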

How the data were processed

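Intensities of 75990 probe sets on 24 arrays were used, 3 per group, as the authors deposited them. The deposited intensity of a probe set is linear, background-corrected, combined over its probes and normalised between arrays by the authors (RMA in their methods, MAS5 in the submitters' notes, version not given). All 24 columns were used, 0 values were missing and array medians were 7.12 to 7.51. Replicates correlated within groups at 0.935 to 0.989. Detection calls were not used here. The number of arrays limits the precision.

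Values were transformed to log2. One copy of each identical row was ranked (556 left out, 1 of them a second copy of a member). limma 3.58.1 in R 4.3.3 was fitted to all 24 arrays with a mean per group (degrees of freedom 16 residual and 4.22 prior). The p values were adjusted by Benjamini-Hochberg over all 75990 probe sets. A call needed an adjusted p under 0.05 and 2-fold. limma stands in for the SAM of the study, which was not run. The calling step was tested on simulated data for low P against normal P in CD roots alone. Figures were drawn with Python 3.11.15 and matplotlib 3.10.9.

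Symbols came from the platform annotation (32405 probe sets with 1 symbol, 1586 with several, 41999 with none), and neighbours from the gene order of the RefSeq table. Text names went by a rule: the 12 highest scores, the 5 members inside and 5 probe sets outside the limit, members with a gene name, members called under low P, the 4 largest tissue differences of each sign per accession, members with a second probe set and members within 10 genes of each other. LOC100780971 was described at length, and LOC100786840 named, after their values were seen. The members, lists and rules were chosen with earlier results of these data known. Planned lists by gene description used symbols instead.

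Pairing of same-number replicates was checked by correlations of deviations, and all 3 passed 0.1 in 5 of 12 comparisons. The main fit used no pairing, and the replicate block was applied as an alternative whatever this check gave. Alternatives were separate fits, array centring on the median, quantile normalization, a filter on the dimmest 33.3% of probe sets, a replicate block, other thresholds, other forms of the score and leaving out each array.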

Additional observations from a re-analysis of the deposited data

Results flagged for a closer look

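In 3 members every CD array moved one way between roots and leaves and every YH array the other way, at both P levels. The share of all probe sets with this pattern was not counted, so that the 3 do not set the members apart. These differences of differences were not tested. For LOC100784383 the mean of roots minus leaves was -0.74 in CD and 1.92 in YH, a difference of -2.66 on the log2 scale. For LOC100786840 it was -1.29 in CD and 1.23 in YH, a difference of -2.53. For LOC100796704 (rank 14) it was -0.97 in CD and 1.0 in YH, a difference of -1.98. The arrays of LOC100796704 read 6.96, 6.93 and 6.97 in CD roots and 8.15, 7.88 and 8.08 in CD leaves under low P, against 4.44, 4.31 and 4.13 in YH roots and 3.36, 3.28 and 3.72 in YH leaves under low P.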

How the results depend on the processing

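Of 203 alternative values, 195 stayed within 1.5 times the count given. Many of these were low P and interaction counts of 0, which had little room to move at the low background shares. This share is therefore no measure of how stable the results are. Without the fold threshold the members called between roots and leaves were 35 and 32 in CD (low P and normal P) and 27 and 25 in YH, against 16, 17, 13 and 14. Separate fits called 1 member for low P in CD roots and 1 for the interaction in roots, LOC100780971 in both, against 0. Leaving out each array in turn gave 16 to 18, 16 to 23, 12 to 16 and 12 to 16 members called between tissues in the same order, 0 to 0 for low P and for the interactions, 0 to 1 second probe sets called in all 4 comparisons (1 with all arrays), and 92 to 99 of the 100 members kept. The members kept were 97 with quantile normalization, 97 with median centring, 85 with group medians, 77 with the lowest CD array minus the highest YH array, 88 with linear ratios floored at an intensity of 4 and 79 with replicates 2 and 3 alone, the last chosen after seeing the data. Replicate 1 had the highest mean log2 intensity of the members in all 4 CD groups. It read 5.36 and 5.40 in roots and 5.42 and 5.26 in leaves (low P and normal P). In YH replicate 1 was highest in each group except leaves under normal P. With the replicate block the tissue counts were 16, 17, 14 and 14, the low P and interaction counts 0 and the second probe sets 1, so that the pairing of replicates changed no count by over 1.5 times. Low signal limits the dimmest members: in 5 of the 100 all 12 YH arrays lay below the lower quartile of their array. In 31 of the 100 all 12 YH arrays lay below the median of their array.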
